A study of Chlorocebus aethiops with 24 samples.

Results

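The ZNF zinc finger genes were examined in the left hippocampus of male vervet monkeys. A row of the array table counted as a ZNF probe set when its annotation gave 1 symbol and that symbol began with ZNF and a digit, a choice made by name and not by expression. This gave 191 of the 11512 probe sets, for 179 symbols, of which 12 had 2 probe sets each in the platform annotation used here. The animals formed 4 groups by exposure before birth and age at death. The FASD groups (fetal alcohol spectrum disorder model) came from dams that drank ethanol voluntarily during late gestation, with 5 animals at 5 months and 5 animals at 2 years. The control groups came from dams given a sucrose solution of equal calories, with 6 animals at 5 months and 6 at 2 years. Every animal contributed 1 rhesus macaque array, and dams that preferred alcohol could serve in either exposure. The exposure is a drinking model in which maternal intake varies between animals, and nothing in the labels gives the intake behind an array.

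A zinc finger of this family is a short fold in which cysteines and histidines hold a zinc ion, and a row of such fingers reads a DNA sequence. Many ZNF proteins also carry a KRAB box, which recruits the corepressor TRIM28 and, through it, the histone methyltransferase SETDB1 and DNA methylation. KRAB zinc finger proteins are known above all for silencing transposable elements and for keeping imprinted loci methylated. Other ZNF proteins lack the box and act as activators, as parts of corepressor complexes or as RNA-binding proteins, and several are needed for brain development.

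The values were log2 expression intensities, so a difference of 1 is a doubling. Intensity depends on the probes, which were designed for rhesus macaque, and a level was therefore not used to rank one gene's abundance against that of another. The tissue was whole hippocampus, in which fewer cells of a type and less RNA per cell cannot be told apart. The neuronal markers SYT1, NRGN, STMN2, NEUROD6 and RTN1 and the glial markers MBP, CNP, GFAP and ALDOC were all present, with neuronal marker means between 9.65 and 13.0. The labels of control 5 months replicate 6 conflicted, since 1 of them gives 2 years, and the animal was kept at 5 months, where its title, description and age place it. FASD 5 months replicate 2 stood apart from the other arrays, with the lowest array weight (0.273) and a mean deviation of -0.064 over all probe sets. It was followed by control 2 years replicate 2 (weight 0.379) and FASD 2 years replicate 2 (weight 0.413). The label FASD 5 months replicate 2 is also not unique, since the title of a discarded array without values gives the same group and number. The supplement of the paper names the discarded array of that group as number 1. The titles of the arrays with values in that group carry 2, 3, 4, 5 and 6, so 1 is the number they leave free. The labels alone do not settle the number, but with the supplement they place the discarded array at 1. The array with values was used under its title.

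ZNF probe sets gave low signals. The median of their mean log2 expression was 6.81, against 8.01 over all probe sets. Of the 191, 92 (48.2%) lay in the lowest of 4 equal level bins cut over all probe sets by mean log2 expression, 53 (27.7%) in the next, 33 (17.3%) in the third and 13 (6.81%) in the highest. The low level went mainly with genes that carry a KRAB box. The 114 KRAB probe sets had a median of 6.33 and 66.7% of them lay in the lowest bin. The 68 probe sets without the box had a median of 7.94, close to that of all probe sets, and 14.7% of them lay in the lowest bin. The box was assigned from general knowledge of the human proteins after the values had been seen, and 9 probe sets were not assigned. The related ZBTB, ZKSCAN and ZSCAN genes, also zinc finger families, had a median of 7.35 over 36 probe sets.

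**Figure D1:**
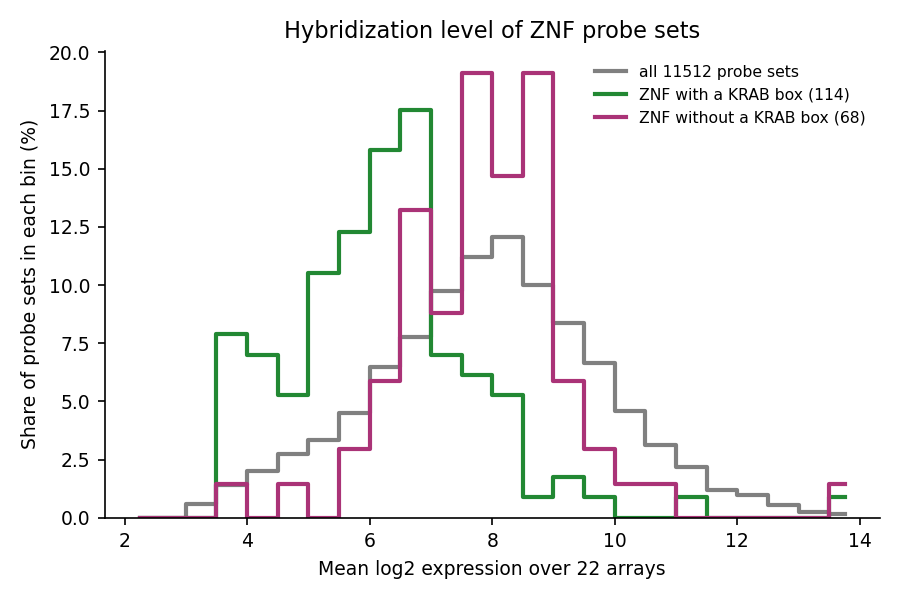
Share of probe sets (vertical axis, percent) in bins of 0.5 of mean log2 expression over 22 arrays (horizontal axis), for all 11512 probe sets, the 114 ZNF probe sets with a KRAB box and the 68 without. The KRAB line lies to the left, with a median of 6.33, while the line of those without the box lies near that of all probe sets.

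The 5 brightest ZNF probe sets were those of ZNF652 (mean 13.6), ZNF732 (13.5), ZNF599 (11.3), ZNF706 (10.9) and ZNF148 (10.1). ZNF652 is a repressor that works with the corepressor CBFA2T3, and ZNF148 binds GC-rich promoters. The 5 dimmest, ZNF678, ZNF442, ZNF214, ZNF483 and ZNF485, all KRAB genes, had means between 3.55 and 3.80. At that level a probe set has little room to fall. The spread between animals of a group was similar to that of other genes, with a median standard deviation of 0.146 for ZNF probe sets and 0.158 over all. It was largest for ZNF597 (0.473), ZNF277 (0.464), ZNF267 (0.435), ZNF385B (0.369) and ZNF391 (0.350). The steadiest was ZNF732, at 0.063. Its mean and that of ZNF652 lay near the highest of any probe set, 13.9. Probe sets with the suffix _x_at numbered 5 of the 191, among them those of ZNF652, ZNF442 and ZNF267. Another 10, among them those of ZNF217 and ZNF706, had the suffix _s_at. Whether these probe sets also bound other transcripts was not tested.

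Probe sets that shared a symbol often disagreed. The methods state that the authors kept 1 probe set per gene, after annotation from Affymetrix combined with a private one from the Norgren lab. Both probe sets of such a pair may have been assigned to different genes there. Their disagreement cannot be told apart from a difference in annotation. Among the 12 symbols with 2 probe sets, the difference between FASD and control ran in opposite directions in 7, and the difference between ages in 4. The correlation between both probe sets over the 22 arrays, after removal of the group means, ran from -0.23 to 0.66 with a median of 0.13, and it was above 0.3 in 3 pairs. ZNF599 had 1 probe set at 11.3 and another at 5.00.

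The first comparison asked whether ZNF expression in the hippocampus differed between FASD and control animals, averaged over both ages. No ZNF probe set passed an adjusted p of 0.05 in limma with Benjamini-Hochberg adjustment over all 11512 probe sets, the lowest adjusted p being 0.579, and no probe set of any gene passed. At an unadjusted p under 0.05 there were 16 ZNF probe sets, or 8.38%, against 8.44% of all probe sets, so the family was called as often as the array as a whole. Of these, 10 were lower in FASD, where the share over all probe sets was 6.01%, and 6 were higher, where it was 2.43%. Lower calls outnumbered higher ones on the array as a whole, and the split turned with the scaling for both. When each array was centred on its median, 5 ZNF probe sets were lower (3.97% of all probe sets) and 9 higher (4.21%). After quantile normalization 8 were lower (4.08%) and 9 higher (4.37%). The median difference of the ZNF probe sets was -0.011 (all probe sets -0.0069), and its sign turned to 0.0027 with centring and 0.0018 with quantile normalization, where all probe sets gave 0.0064 and 0.0096. All 191 differences lay between -0.28 and 0.24.

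ZNF350 had the lowest p. It encodes ZBRK1, a KRAB repressor that binds BRCA1. In control animals at 5 months its log2 expression was 6.64 at the lowest, 6.70 at the median and 6.85 at the highest, and in FASD animals of that age it was 6.67, 6.42, 6.75, 6.64 and 6.36. At 2 years the controls ran from 6.59 over a median of 6.69 to 6.78, and the FASD animals gave 6.49, 6.36, 6.63, 6.54 and 6.51. At 2 years 4 of 5 FASD animals lay below every control, and at 5 months 3 of 5 did, while the ranges overlapped at both ages. The difference was -0.17 (SE 0.05, unadjusted p = 0.00382, adjusted p = 0.579 in limma), with an exact two-sided permutation p of 0.00178 over 213444 arrangements of exposure within age. It stayed between -0.19 and -0.14, at an unadjusted p under 0.05, when each of the 22 animals was left out in turn.

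ZNF460, another KRAB gene, was dim, at a mean of 4.41. Controls at 5 months lay between 4.36 and 4.78 with a median of 4.41, and FASD animals gave 4.17, 4.27, 4.19, 4.29 and 4.48. Controls at 2 years lay between 4.19 and 4.83 with a median of 4.70, against 4.32, 4.31, 4.30, 4.18 and 4.40 in FASD. The 2-year controls fell into 4 high and 2 low animals, and the low ones were as low as the FASD animals. The difference was -0.22 (SE 0.08, unadjusted p = 0.00673 in limma, exact permutation p = 0.00956).

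ZNF182, an X-linked KRAB gene, was lower by a similar amount. Controls ran from 6.80 to 7.00 at 5 months with a median of 6.89, and FASD animals gave 6.90, 6.73, 6.76, 6.68 and 6.76. Controls at 2 years ran from 6.71 to 7.05 with a median of 6.81, and FASD animals gave 6.44, 6.67, 6.64, 6.92 and 6.76. At each age 1 FASD animal lay in the upper part of the control range. The difference was -0.15 (SE 0.05, unadjusted p = 0.0124 in limma, exact permutation p = 0.0074).

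ZNF217, which lacks a KRAB box, acts within CtBP and CoREST corepressor complexes and is amplified in breast cancers. It had the largest difference of the 16, -0.28 (SE 0.11, unadjusted p = 0.0151 in limma). At 5 months controls lay between 6.66 and 7.38 with a median of 7.00, and FASD animals gave 5.96, 6.55, 7.03, 6.72 and 6.77. The value of 5.96 was that of FASD 5 months replicate 2. Without that animal the difference over both ages was -0.20, still at p under 0.05, and the 5-month difference moved from -0.37 to -0.21 and no longer had p under 0.05. The same loss followed from leaving out control 5 months replicate 1 (-0.29). At 2 years the FASD animals lay close together, at 6.60, 6.67, 6.76, 6.81 and 6.77, within the control range of 6.62 to 7.31 except for the lowest.

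The other lower genes at an unadjusted p under 0.05 were ZNF23 (-0.16), ZNF445 (-0.16), ZNF441 (-0.15), ZNF559 (-0.15), ZNF141 (-0.19) and ZNF711 (-0.18). ZNF445 is a KRAB protein that, with ZFP57, keeps imprinted loci methylated, and ZNF711 is an X-linked gene mutated in intellectual disability. For ZNF445, FASD animals gave 7.70, 8.16, 8.27, 8.08 and 7.99 at 5 months against controls of 7.95 to 8.34, and 7.68, 8.07, 8.15, 8.18 and 8.02 at 2 years against controls of 8.00 to 8.40. In each age 1 FASD animal lay well below the rest and the others overlapped the controls. The number of animals whose removal alone raised p over 0.05 was 13 of 22 for ZNF141, 12 for ZNF711, 9 for ZNF441, 8 for ZNF559, 6 for ZNF445 and 0 for ZNF23.

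The 6 higher probe sets were ZNF101 (0.14), ZNF75A (0.13), ZNF544 (0.11), ZNF333 (0.11), ZNF556 (0.10) and ZNF619 (0.10), the last named after its values were seen. All but ZNF619, whose box was not assigned, are KRAB genes, and all 6 lay in the lowest level bin. For ZNF101, FASD animals gave 4.73, 4.46, 4.51, 4.51 and 4.43 at 5 months and 4.88, 4.46, 4.31, 4.51 and 4.47 at 2 years. Controls stayed between 4.35 and 4.48 and between 4.28 and 4.45. The result lost p under 0.05 without the animal at 4.73 or the one at 4.88. Such a loss followed for ZNF333 and ZNF619 from any of 8 animals, for ZNF75A from any of 5, for ZNF556 from any of 4 and for ZNF544 from 1. Of the 16 probe sets called for alcohol, 5 kept p under 0.05 whichever animal was left out, namely ZNF350, ZNF460, ZNF182, ZNF217 and ZNF23. ZNF544 had a second, brighter probe set, which differed by -0.03 (unadjusted p = 0.535 in limma), so its higher value came from 1 of the 2 probe sets with that symbol.

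**Figure D2:**
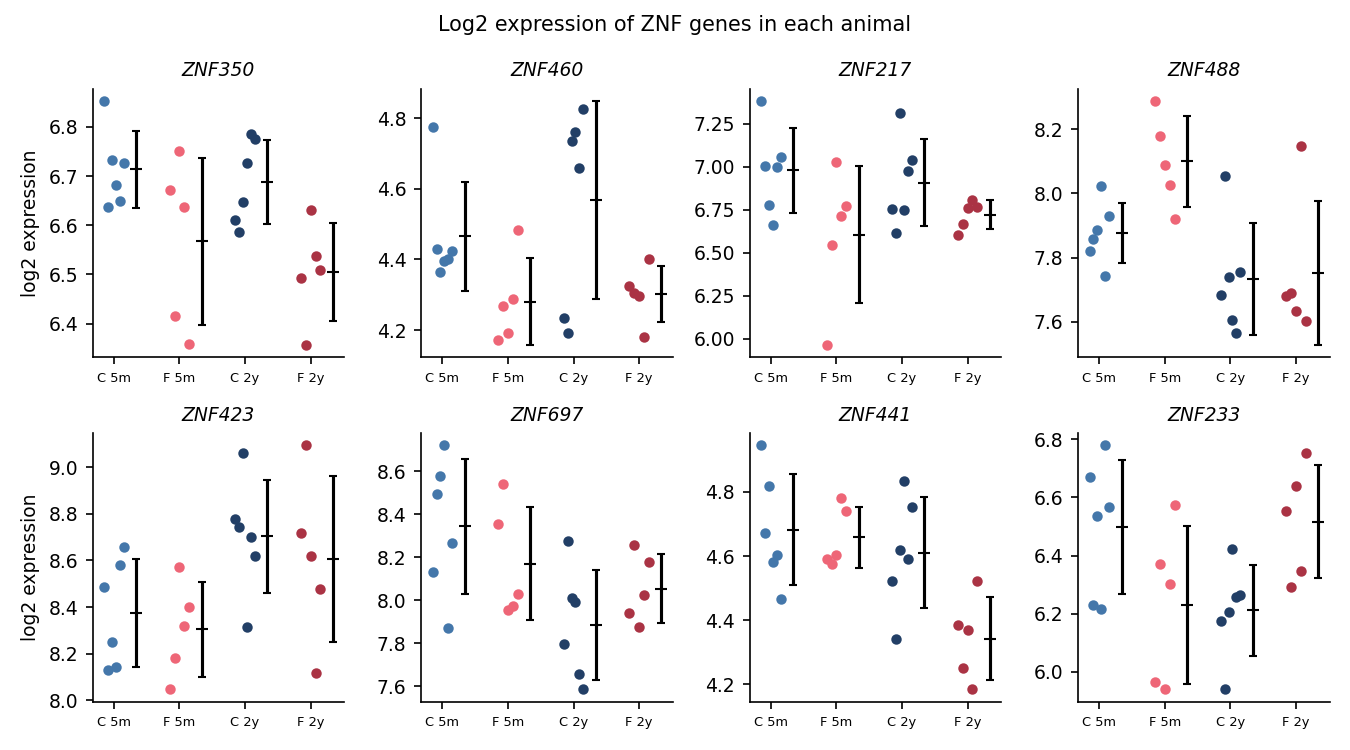
Log2 expression (vertical axis, a scale of its own for each gene) of 8 ZNF genes in control (C) and FASD (F) animals at 5 months (5m) and 2 years (2y). Points are animals and black bars are group means with 1 standard deviation. ZNF350 and ZNF460 lie lower in FASD at both ages, ZNF488 and ZNF441 lie lower in FASD at 2 years than in FASD at 5 months, and ZNF423 lies higher at 2 years.

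Within an age the calls differed in number. At 5 months 5 ZNF probe sets had p under 0.05, or 2.62%, against 4.83% of all probe sets. They were 2 lower (3.36% of all probe sets) and 3 higher (1.47%), namely ZNF217 and ZNF233, and ZNF544, ZNF488 and ZNF556. The exact permutation p over 462 arrangements was 0.0173 for ZNF544, 0.0519 for ZNF556 and 0.0844 for ZNF217. Only ZNF544 of the 5 kept p under 0.05 in limma whichever animal was left out. With array centring 1 was lower (1.58% of all probe sets) and 4 were higher (3.37%). At 2 years there were 16, or 8.38%, against 6.05%, with 8 lower (3.35%) and 8 higher (2.69%). The lowest adjusted p was 0.93 at 5 months and 0.793 at 2 years. Those counts moved when single animals were left out, and no share over all probe sets is set beside them for these removals. The 5-month count rose to 9 without FASD 5 months replicate 4, without FASD 5 months replicate 6 or without control 5 months replicate 4, and to 8 without FASD 5 months replicate 5. The 2-year count was 8 without control 2 years replicate 4 or replicate 6, 9 without replicate 5 and 25 without replicate 2. The count over both ages was 8 without FASD 2 years replicate 1, 10 without control 5 months replicate 1 and 25 without control 2 years replicate 2.

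The lowest p at 2 years belonged to ZNF441, a KRAB gene. FASD animals gave 4.39, 4.25, 4.37, 4.18 and 4.52 against controls from 4.34 to 4.83 with a median of 4.61, a difference of -0.27 (SE 0.09, unadjusted p = 0.00718 in limma, exact permutation p = 0.0238 over 462 arrangements). ZNF559 differed by -0.26 (exact permutation p = 0.0455) and ZNF394 by 0.21 (exact permutation p = 0.0433). For ZNF394, 4 of the 5 FASD animals lay between 6.57 and 6.63 and the other at 6.39, while 5 of the 6 controls lay between 6.21 and 6.39 and the other at 6.65. Of the 16 called at 2 years, ZNF441 and ZNF394 kept p under 0.05 whichever animal was left out.

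The ages share no animals, so their alcohol differences could be set side by side. Of the 191 probe sets, 60.2% had the same sign at both ages, against 57.5% of all probe sets, and 71 were lower at both. The correlation across probe sets was 0.23 for ZNF and 0.19 for all, a description across genes that share the arrays of each group. It fell to 0.053 for ZNF and 0.091 for all without FASD 2 years replicate 2.

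The second comparison asked how ZNF expression differed between 5 months and 2 years, averaged over exposure. No ZNF probe set passed an adjusted p of 0.05 in limma, the lowest being 0.183, while 16 probe sets of the array did. At an unadjusted p under 0.05 there were 13 ZNF probe sets, or 6.81%, under the 9.57% of all probe sets. They were 9 lower at 2 years (4.89% of all probe sets) and 4 higher (4.68%). The family as a whole lay slightly lower at 2 years. Of the 191, 62.3% had a negative difference, against 48.5% of all probe sets, and the median was -0.025 against 0.0028. That sign held with array centring (-0.019 against 0.0084) and with quantile normalization (-0.018 against 0.0049). The mean of the 191 probe sets in an animal had a standard deviation of 0.031 to 0.059 between animals of a group.

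ZNF488 had the lowest p for age. It encodes a transcriptional repressor found in the oligodendrocyte lineage, where it partners OLIG2. At 5 months controls lay between 7.74 and 8.02 with a median of 7.87, and FASD animals gave 8.29, 8.18, 8.09, 8.03 and 7.92. At 2 years controls lay between 7.57 and 8.05 with a median of 7.71, and FASD animals gave 7.68, 7.69, 7.63, 8.15 and 7.60. In FASD, 4 of 5 animals at 2 years lay below every animal at 5 months, and the other was FASD 2 years replicate 4, at 8.15. The difference was -0.25 (SE 0.07, unadjusted p = 0.00164, adjusted p = 0.183 in limma, exact permutation p = 0.00552 over 232848 arrangements). It was -0.35 in FASD (SE 0.10) and -0.14 in controls (SE 0.09), and the test of the difference between both, the interaction, gave an unadjusted p of 0.148.

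At 5 months ZNF488 was also 0.22 higher in FASD than in control (SE 0.10, unadjusted p = 0.0311 in limma), and at 2 years the difference was 0.02. At 5 months the marker lists of the same lineage were also higher in FASD. The mean deviation of the oligodendrocyte precursor list (BCAS1, CSPG4, GPR17, OLIG2 and SOX10, 5 of the 8 listed) lay between 0.114 and 0.466 in the 5-month FASD animals and between -0.194 and 0.0078 in the 5-month controls. In that list GPR17 (0.62) and BCAS1 (0.41) had p under 0.05 at 5 months. The myelin list (CNP, GAL3ST1, MAL, MBP, MYRF and UGT8, 6 of 12) lay between 0.035 and 0.50 in FASD and between -0.21 and 0.026 in control at that age. The highest FASD value of each list was that of FASD 5 months replicate 2. At 2 years the precursor list had a mean of 0.0085 in FASD and -0.12 in control. The myelin list had means of -0.048 and -0.033 there. In controls the myelin list went from -0.10 at 5 months to -0.033 at 2 years, while ZNF488 was lower at 2 years. The part of these lists in the ZNF488 result was not tested.

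ZNF423, a many-fingered protein that works with SMADs and EBF factors and is needed for the development of the cerebellum, had the largest difference of the 4 higher genes. At 5 months controls lay between 8.13 and 8.66 with a median of 8.37, and FASD animals gave 8.05, 8.18, 8.57, 8.32 and 8.40. At 2 years controls lay between 8.31 and 9.06 with a median of 8.72, and FASD animals gave 8.72, 9.09, 8.62, 8.12 and 8.48. The difference was 0.32 (SE 0.10, unadjusted p = 0.00616 in limma, exact permutation p = 0.0103), and the sizes were alike in controls (0.33) and in FASD (0.30). The ranges of both ages overlapped in each exposure. ZNF831 (0.17), ZNF174 (0.11) and ZNF706 (0.14) were the other higher genes, and their p rose over 0.05 on removal of any of 7, 2 and 11 animals, in that order. Of the 13 probe sets called for age, 7 kept p under 0.05 whichever animal was left out, namely ZNF488, ZNF423, ZNF441, ZNF711, ZNF148, ZNF697 and ZNF684.

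ZNF441 differed by -0.19 over both exposures (unadjusted p = 0.00617 in limma, exact permutation p = 0.0116). In FASD its 5-month values of 4.59, 4.58, 4.60, 4.78 and 4.74 all lay above its 2-year values, a difference of -0.32 (SE 0.09) whose exact permutation p of 0.00794 is the smallest that 252 arrangements can give. In controls the difference was -0.07 (SE 0.09). The interaction had an unadjusted p of 0.0695, so the difference between exposures did not pass the threshold.

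Several genes of brain development were among the lower ones. ZNF711 differed by -0.25 (SE 0.09, unadjusted p = 0.00992 in limma), from a 5-month control median of 9.30 to 9.09 at 2 years, and in FASD from 9.23, 8.97, 9.23, 9.10 and 9.30 to 8.75, 8.37, 9.03, 9.20 and 9.12. ZNF148, whose loss causes intellectual disability with anomalies of the corpus callosum, differed by -0.15 (SE 0.06, unadjusted p = 0.0149). A list of ZNF genes tied to neural development or inherited brain disorders had 13 measured members of 23, drawn up with earlier results of these data known. For age, 4 of the 13 had p under 0.05, against 9.57% of all probe sets, with ZNF148, ZNF488 and ZNF711 lower and ZNF423 higher. The median of the list was 0.0035. For alcohol 1 of 13 did (8.44% of all), ZNF711. ZNF804A, a gene associated with schizophrenia, had differences of -0.03 for alcohol and 0.02 for age, both at an unadjusted p over 0.7. Of the ZNF genes that bind RNA, microtubules, ubiquitin or ribosome precursors, with 12 probe sets, ZNF706 had p under 0.05 for age and none for alcohol.

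Within exposures, the age calls leaned to lower values in controls. There, 15 ZNF probe sets had p under 0.05, or 7.85%, against 5.55% of all probe sets. Of these, 14 were lower at 2 years, or 7.33%, where the share over all probe sets was 3.77%, and 1 was higher, ZNF423, where it was 1.78%. With array centring 11 were lower (2.68% of all probe sets) and 2 higher (3.23%), and with quantile normalization 10 were lower (3.07%) and 1 higher (2.68%). The count in controls was 7 in all without control 5 months replicate 3 or without control 2 years replicate 5, and 25 without control 2 years replicate 2. No share over all probe sets is given for these removals. In FASD 10 had p under 0.05, or 5.24%, against 6.99%, with 4 lower (2.28%) and 6 higher (4.71%). With array centring 8 were lower (3.21%) and 5 higher (4.16%). Without FASD 5 months replicate 2 the count was 5, all of them lower, again with no share over all probe sets beside it. ZNF831 differed by 0.28 in FASD, with an exact permutation p of 0.0556, and ZNF488 had an exact permutation p of 0.0317, both over 252 arrangements. The lowest adjusted p was 0.441 in controls and 0.515 in FASD.

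In controls 135 of the 191 probe sets (70.7%) had a negative age difference, against 54.9% of all, and the median was -0.039 against -0.0099. With array centring it was -0.011 against 0.018 and with quantile normalization -0.024 against 0.0046, below all probe sets under each scaling. In FASD the median was -0.013 against 0.016, and it turned to 0.017 without FASD 2 years replicate 2. No median over all probe sets is given for that removal. The ZNF mean minus the mean of all probe sets was -0.092 in that animal. It lay between -0.0090 and 0.034 in the other 2-year FASD animals and between -0.012 and 0.027 in the 5-month ones. Both exposures had a negative difference in 81 probe sets (42.4%), against 28.2% of all. The correlation across probe sets between both, which share no animals, was 0.18 for ZNF and 0.32 for all.

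ZNF697, without a KRAB box, had the lowest p for age in controls. Its 5-month controls lay between 7.87 and 8.72 with a median of 8.38, and its 2-year controls between 7.59 and 8.28 with a median of 7.89, a difference of -0.46 (SE 0.14, unadjusted p = 0.00326 in limma, exact permutation p = 0.0281 over 924 arrangements). FASD animals gave 8.35, 8.54, 7.96, 7.97 and 8.03 at 5 months and 7.94, 8.26, 7.88, 8.02 and 8.18 at 2 years, a difference of -0.12. ZNF22 (KROX-26) differed by -0.19 in controls (exact permutation p = 0.00866) and ZNF148 by -0.20 (exact permutation p = 0.0195). For ZNF148 the 5-month controls lay between 10.08 and 10.29 and the 2-year controls between 9.78 and 10.13, with a narrow overlap.

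Level was taken into account by the 4 level bins. The third bin holds means from 8.01 to 9.17. Its 33 ZNF probe sets had a median age difference in controls of -0.11, against -0.020 for all 2878 probe sets of that bin. There, 8 of the 33 had p under 0.05, where the share over all probe sets of the bin was 5.21%, and 7 of them were lower (3.93%), namely ZNF697, ZNF22, ZNF512, ZNF300, ZNF462, ZNF277 and ZNF507. The median was -0.084 with array centring and -0.085 with quantile normalization, where all probe sets of the bin gave 0.0075 and 0.0066, and the lower calls were then 4, against 2.85% and 2.71% of the bin. Leaving out 1 animal raised p over 0.05 for ZNF507 (any of 11 animals), ZNF277 and ZNF462 (6 each), ZNF300 (5) and ZNF512 (1). ZNF277 had a second, dimmer probe set (mean 6.77) that did not follow the one in this bin. Over both exposures its age difference was 0.01 (unadjusted p = 0.901 in limma), against -0.34 for the brighter one. In the lowest bin, where most KRAB genes lie, the median was -0.033 against -0.0048. The third bin was singled out, and ZNF300, ZNF462 and ZNF507 named, after the values were seen. For alcohol the medians by bin were -0.0098, 0.0032, -0.042 and -0.024 from the lowest to the highest.

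**Figure D3:**
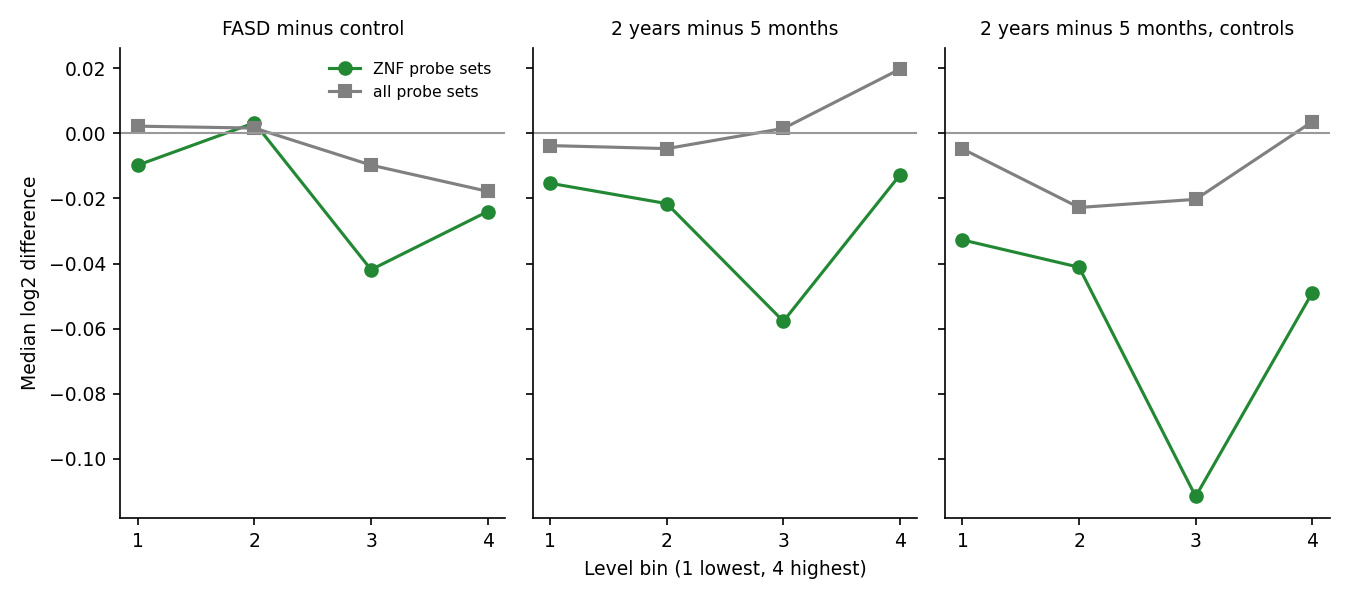
Median log2 difference (vertical axis) by level bin (horizontal axis, 1 lowest to 4 highest) for ZNF probe sets (circles) and all probe sets (squares), for alcohol, age and age in controls. For age the ZNF line lies below the other in each bin, and in controls it reaches -0.11 in bin 3.

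By domain, 13 of the 114 KRAB probe sets and 2 of the 68 without the box had p under 0.05 for alcohol, where the share over all probe sets was 8.44%. For age 4 with the box and 9 without it did (9.57% of all). Within exposures the age calls were 7 with the box and 8 without in controls (5.55%) and 5 of each in FASD (6.99%). No test of a difference between domains was made, since the domains were assigned after the values were seen. The medians for age were alike, at -0.027 with the box and -0.030 without. ZBTB, ZKSCAN and ZSCAN genes, with 36 probe sets, had a median of 0.013 for alcohol and 0.0059 for age, with 2 of 36 at p under 0.05 in each, against 8.44% and 9.57% of all probe sets. These were ZBTB14 (-0.23) and ZBTB45 (0.15) for alcohol, and ZBTB21 (-0.25) and ZBTB16 (-0.24), the latter a repressor also called PLZF, for age.

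The partners of KRAB repression were measured by 18 probe sets of 37 listed genes. TRIM28 and SETDB1, the core of the complex, had p over 0.05 for alcohol and for age. For alcohol 3 of the 18 had p under 0.05, against 8.44% of all probe sets, namely the SETDB1 cofactor ATF7IP (0.11), the histone deacetylase HDAC2 (-0.12) and the SUMO ligase PIAS1 (-0.12). For age 2 did, against 9.57% of all, namely UHRF1 (-0.46, unadjusted p = 0.00231 in limma), which maintains DNA methylation and is active in dividing cells, and the de novo methyltransferase DNMT3A (-0.23). UHRF1 was the dimmest of the 18, at a mean of 4.58, in the lowest level bin. For the interaction 2 of the 18 had p under 0.05 (3.00% of all), SETDB1 itself (0.27, unadjusted p = 0.0449 in limma) and DNMT3B (0.15, unadjusted p = 0.0498). For both, the FASD minus control difference was higher at 2 years than at 5 months. In controls the median age difference of the 18 was -0.068, against -0.0099 over all probe sets. It was -0.040 with array centring, against 0.018, and -0.043 with quantile normalization, against 0.0046. None of these passed an adjusted p of 0.05.

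Markers of immature neurons moved with age in the same animals. Of DCX, PROX1, SOX11 and SOX4, 3 had an unadjusted p under 0.05 and lower values at 2 years, and SOX4 (-0.62) passed the adjustment (adjusted p = 0.00556 in limma). The mean deviation of these 4, which are 4 of 8 listed, lay between -0.026 and 0.439 in 5-month controls and between -0.0012 and 0.318 in 5-month FASD animals. At 2 years it lay between -0.384 and -0.146 in controls and between -0.439 and 0.44 in FASD. The 0.44 belonged to FASD 2 years replicate 4, which also had the highest ZNF488 of its group. Their part in the lower ZNF values at 2 years was not tested.

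The third comparison, the interaction, asked whether the difference between FASD and control changed with age. There were 5 ZNF probe sets at an unadjusted p under 0.05, or 2.62%, against 3.00% of all probe sets, and the lowest adjusted p rounded to 1.00. For all 5 the FASD minus control difference ran higher at 2 years than at 5 months (2.11% of all probe sets), and for 0 it ran lower (0.886%). With array centring 3 ran higher (1.11%) and 1 lower (1.80%), and with quantile normalization 4 ran higher (1.48%) and 0 lower (1.37%). Their number was 15 without FASD 2 years replicate 2, 11 without control 2 years replicate 2, 9 without FASD 5 months replicate 4 and 8 without control 5 months replicate 1. No share over all probe sets stands beside these numbers. The median interaction was 0.039, against 0.032 over all probe sets, and turned to -0.0050 with array centring, against -0.012.

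ZNF233, a KRAB gene, had the largest interaction. At 5 months controls lay between 6.22 and 6.78 with a median of 6.55 and FASD animals gave 5.97, 6.37, 5.94, 6.30 and 6.57, a difference of -0.27. At 2 years controls lay between 5.94 and 6.42 with a median of 6.23 and FASD animals gave 6.55, 6.29, 6.64, 6.35 and 6.75, a difference of 0.30. At 5 months 2 of the 5 FASD animals lay below all controls, and at 2 years 3 of 5 lay above all controls. The interaction was 0.57 (SE 0.17, unadjusted p = 0.0034 in limma) and stayed between 0.50 and 0.66 when each animal was left out in turn. ZNF18 (0.32), ZNF512 (0.27), ZNF532 (0.22) and ZNF792 (0.19) had the same shape, with FASD below control at 5 months and above at 2 years. Like ZNF233, ZNF18 and ZNF512 kept p under 0.05 whichever animal was left out, while ZNF532 lost it on removal of any of 10 animals, with values from 0.14 to 0.26, and ZNF792 on removal of any of 5.

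**Figure D4:**
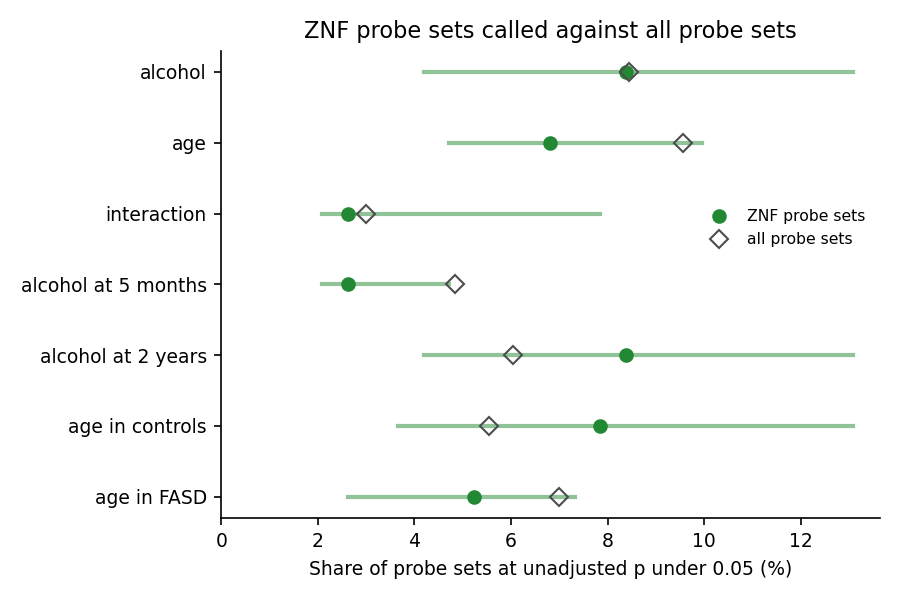
Share of probe sets at an unadjusted p under 0.05 (horizontal axis, percent) in the 7 comparisons (vertical axis), for the 191 ZNF probe sets (filled circles) and all probe sets (open diamonds). Green lines give the range of the ZNF share when each of the 22 animals is left out in turn. In every comparison but alcohol at 5 months they cross the diamond, which was computed from all 22 animals.

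Seen by animal, the mean deviation of the 191 probe sets from their means over the 22 arrays was 0.031 ± 0.031 (SD, n = 6) in 5-month controls, -0.0077 ± 0.042 (n = 5) in 5-month FASD animals, -0.015 ± 0.033 (n = 6) in 2-year controls and -0.012 ± 0.059 (n = 5) in 2-year FASD animals. The groups overlapped. The 5 FASD animals at 5 months gave -0.076, -0.012, 0.039, 0.0025 and 0.0081, and those at 2 years gave -0.030, -0.106, 0.018, 0.040 and 0.020. The lowest value, -0.106, was that of FASD 2 years replicate 2, whose deviation over all probe sets was -0.014 and in which 62.8% of ZNF probe sets lay below their mean against 46.2% of all. In that animal the KRAB partners stood at -0.12. Its pyramidal and general neuron markers stood at -0.274 and its dentate granule and immature neuron markers at -0.208. Its interneuron markers stood at 0.381, the astrocyte markers at 0.193 and the oligodendrocyte precursor markers at 0.24. In control 2 years replicate 6 the pyramidal and general neuron markers were at -0.293 and the ZNF mean at -0.045. The part of cell types in these values was not tested. The next lowest ZNF mean, that of FASD 5 months replicate 2 at -0.076, went with a low value over all probe sets, at -0.064. The highest ZNF mean was that of control 5 months replicate 3, at 0.066.

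**Figure D5:**
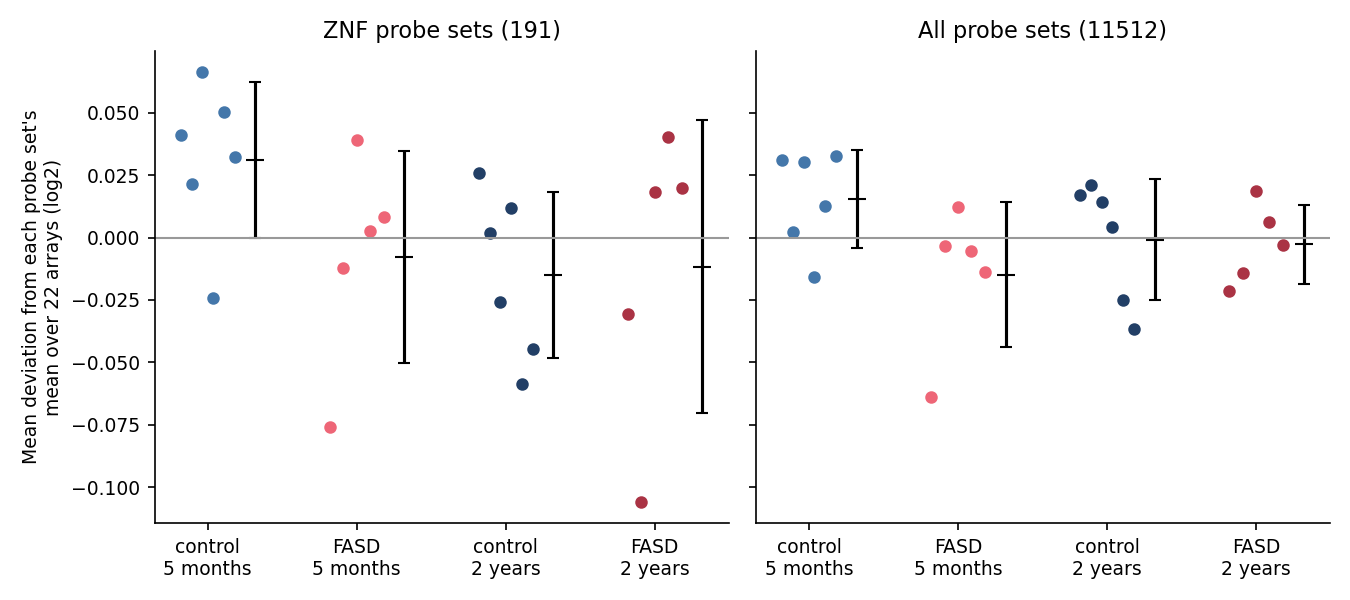
Mean deviation from each probe set's mean over 22 arrays (vertical axis, log2) by group (horizontal axis), for the 191 ZNF probe sets on the left and all 11512 on the right. Points are animals and bars are the group mean with 1 standard deviation. The 2 lowest ZNF values, -0.106 and -0.076, belong to FASD 2 years replicate 2 and FASD 5 months replicate 2, and only the latter is as low over all probe sets.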

How the data were processed

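Deposited log2 expression values came from RNA of 22 hippocampi, hybridized by the authors to rhesus macaque arrays and processed with RMA (named in the submitters' processing notes, version not given in the sources used here), which corrects background, normalizes arrays and summarizes probes. According to the methods, probe sets were kept when annotated and detected in at least 6 arrays. Where several stood for a gene in the annotation the authors used, the brightest on average was kept. By the platform annotation used here some symbols still have 2 rows. The table had 24 array columns, and 2 held no values (arrays discarded by the authors) and were not analysed. Symbols came from the platform annotation, in which 8730 rows had a single symbol, 88 had more than 1 and 2694 lacked one.

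Differences were computed with limma 3.58.1 (R 4.3.3) from 4 group means with empirical Bayes moderation, two-sided, with Benjamini-Hochberg adjustment over all 11512 rows, and the steps were tested on simulated data. Exact permutations rearranged exposure within age or age within exposure. No depth applies to arrays, and their number limits the precision. P-values measure the spread between these animals. Replicate numbers were not used to pair the animals in the main fit.

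The ZNF genes and all lists were chosen with earlier results of these data known. Genes were named by a rule: the 12 of lowest p and 5 of largest difference for alcohol and for age, the 5 of lowest p in each other comparison, the 5 highest and 5 lowest in level, the 5 of largest spread, list members at p under 0.05, and genes with 2 probe sets that disagree. ZNF300, ZNF462, ZNF507, ZNF619, ZNF804A, TRIM28 and SETDB1 fall outside it and were chosen after their values were seen. KRAB boxes came from general knowledge, since no proteins were used here. Python 3.11.15 and matplotlib 3.10.9 made the plots. Alternatives were another variance model, 2 other scalings, array weights, a level filter, 1 row per gene, a replicate block, fits of only the 2 groups compared and leaving out each animal.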

Additional observations from a re-analysis of the deposited data

Results flagged for a closer look

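Among 124 groups of values (29 named ZNF genes and the ZNF and all-row means by animal), 8 held an animal far from the others of its group, where chance gives about 1 in 20. The animal far above its group was control 5 months replicate 1 for ZNF460 (4.78) and ZNF711 (9.49), FASD 5 months replicate 2 for ZNF101 (4.73), and FASD 2 years replicate 4 for ZNF488 (8.15) and ZNF792 (5.75). The animal far below was control 5 months replicate 5 for ZNF75A (4.85), control 2 years replicate 2 for ZNF706 (10.8) and FASD 5 months replicate 2 for ZNF532 (8.94).

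The difference between FASD and control changed between 5 months and 2 years at an unadjusted p under 0.05 in limma for ZNF233 (0.57), ZNF18 (0.32), ZNF512 (0.27), ZNF532 (0.22) and ZNF792 (0.19), as given above. The lowest adjusted p of these was 1.00.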

How the results depend on the processing

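The counts of ZNF probe sets at an unadjusted p under 0.05 moved with the weights, the level filter and single animals. For the weights, the filter, the block and the removals, no share over all probe sets is given. Whether such moves were particular to the ZNF genes was not tested. Array weights gave 23 for age, 14 for the interaction, 11 for alcohol at 5 months and 29 for age in controls. Among the probe sets in the upper part of expression the counts were 2 for alcohol, 6 for age and 2 for the interaction. They were 0 for alcohol at 5 months, 0 for alcohol at 2 years, 9 for age in controls and 1 for age in FASD. That part is made up of the third level bin, with 33 ZNF probe sets, and the highest, with 13. A fit of only the 2 groups compared gave 10 for alcohol at 2 years. With each animal left out in turn, the counts ran from 8 to 25 for alcohol, 9 to 19 for age, 4 to 15 for the interaction, 4 to 9 for alcohol at 5 months, 8 to 25 for alcohol at 2 years, 7 to 25 for age in controls and 5 to 14 for age in FASD. The median difference ran from -0.021 to -8.7e-05 for alcohol and from -0.032 to -0.014 for age. Without control 5 months replicate 6, whose labels conflict, the counts were 16 for alcohol and 13 for age.

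With the replicate number as a block the counts were 15 for alcohol, 15 for age, 6 for the interaction, 7 and 13 for alcohol at 5 months and 2 years and 13 and 11 for age in controls and in FASD. Same-numbered animals of different groups had a mean correlation of 0.071, from -0.33 to 0.39 over 30 pairs. Differently numbered ones had a mean of -0.011, from -0.51 to 0.43 over 151 pairs. Such weak correlations over whole arrays cannot decide whether the numbers pair animals, and the main fit treated the animals as unpaired. Of 1511 values of single named genes under the alternatives, 1351 kept their direction and their side of the threshold, 160 kept their direction with p no longer under 0.05, and 0 turned. All signals are array intensities, and dim probe sets understate differences.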
